A study of Mus musculus with 7 samples.

Results

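The 9 genes described here, Ifit1, Ifit3, Isg15, Ifitm3, Irf7, Bst2, Ly6e, Ifi27l2a and Irgm1, are interferon-stimulated genes, taken by their symbols from the 32285 genes counted in each library. They were followed in single cells of mouse brain microvessels, across arterial, capillary and venous endothelial cells, pericytes, smooth muscle cells and microglia. All 7 droplet libraries came from untreated C57Bl6 mice: 3 libraries at 12 months of age and 4 at 3 months. One brain hemisphere without cerebellum, brain stem and olfactory bulbs was digested with collagenase, and vessel pieces were captured on magnetic beads carrying an antibody to CD31, an endothelial surface protein. Microglia and mural cells are therefore those that came along with captured vessels. The labels do not say how many mice gave a library, so p-values measure the spread between these libraries.

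Interferon-stimulated genes are switched on when a cell senses interferon. Type I interferons bind the receptor Ifnar1 and Ifnar2 and act through the kinases Jak1 and Tyk2 and a transcription factor complex that binds the interferon-stimulated response element in gene promoters. Many of these genes also have a resting level in brain endothelium, the cell layer that viruses in blood meet first. The 9 genes differ in what their proteins do. Irf7 is a transcription factor that amplifies interferon production, and Isg15 is a ubiquitin-like protein joined to other proteins. Ifit1 binds foreign RNA, and Ifit3 is a member of the same protein family. Ifitm3 blocks fusion of viruses in endosomes, Bst2 (tetherin) holds budding virus at the membrane, and Ly6e is a membrane-anchored surface protein. Irgm1 is a GTPase that controls related GTPases and autophagy, and Ifi27l2a is a small hydrophobic protein.

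All 9 are protein-coding genes in the annotation of build GRCm38. Isg15 lies at chr4:156199424-156200818, Ifitm3 at chr7:141009586-141010770, Irf7 at chr7:141262706-141266481, Bst2 at chr8:71534255-71537456, Irgm1 at chr11:48861968-48871683 and Ifi27l2a at chr12:103442167-103443680, all on the minus strand. Ly6e lies at chr15:74955051-74959905, Ifit3 at chr19:34583531-34588731 and Ifit1 at chr19:34640871-34650009, on the plus strand. Ifit3, Ifit1, Ifitm3 and Ifi27l2a belong to gene families with other members nearby. How alike their sequences are was not measured and the treatment of reads shared with a relative is not stated, so their values are uncertain to that extent.

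Promoters from RefSeq on GRCm38.p6, 250 bases before to 50 bases after the start, were matched for 7 of the 9 genes. The core of the interferon-stimulated response element, GAAA followed by 2 bases of any kind and GAAA again, was searched on both strands, with overlapping matches allowed. Of these 7 promoters, 6 held the motif, and each of the 6 held it at least 2 times; of all 32851 promoters of that length, 3.44% held it once or more and 0.225% held it at least 2 times. The 6 stretches below show where it lies, in the 6 promoters with a match; they are written 5′ to 3′ on the gene's strand, and capitals mark the matches, which read as TTTC, 2 bases and TTTC where the match is on the other strand.
Isg15, chr4:156200855-156200916, minus strand: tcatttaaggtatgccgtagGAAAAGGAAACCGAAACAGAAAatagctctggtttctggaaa
Bst2, chr8:71537567-71537622, minus strand: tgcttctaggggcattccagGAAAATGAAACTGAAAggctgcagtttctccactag
Ifit1, chr19:34640765-34640833, plus strand: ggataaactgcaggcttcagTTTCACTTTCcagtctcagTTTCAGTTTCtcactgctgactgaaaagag
Ifit3, chr19:34583353-34583436, plus strand: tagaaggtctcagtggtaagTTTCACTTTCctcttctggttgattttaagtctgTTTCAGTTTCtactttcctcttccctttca
Irgm1, chr11:48871434-48871451, minus strand: aGAAATAGAAACCGAAAc
Ifitm3, chr7:141010715-141010743, minus strand: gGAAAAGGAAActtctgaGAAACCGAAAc
In Isg15 the matches began 78, 72 and 66 bases before the start, in Bst2 130 and 124, in Ifit1 104 and 85, and in Ifit3 156 and 122. In Irgm1 they began 30 and 24 bases before the start, within the annotated gene model, and in Ifitm3 at bases 3 and 20 after it. No match was found in the Irf7 window. The core of the element used by type II interferon, TTC, 3 bases of any kind and GAA, was found in 2 of the 7 promoters, Ifitm3 and Bst2, against 8.30% of all.

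After filters, 37134 cells remained, 3797 to 8916 a library, of which 30241 were endothelial. Median UMIs (unique molecules) per cell ranged from 1094 to 2783 in the 12-month libraries and from 3082 to 5334.5 in the 3-month ones. Age and depth were thus not separated, and the file headers name Cell Ranger 4.0.0 for the 12-month libraries and 6.1.1 for the others, so age, depth and version cannot be told apart. No 2 libraries shared more than 15 cell barcodes. All 10 endothelial markers were found in every capillary sum, and all 12 microglial markers in every microglial sum. Detection alone does not separate the classes, as all 10 endothelial markers were also found in every pericyte, smooth muscle and microglial sum. The clusters were named from listed markers, so finding them is no independent check. The pericyte sums also held the 10 endothelial markers at 36.4 to 75.9% of their capillary level, against 2.52 to 7.92% in smooth muscle and 1.37 to 8.40% in microglia, values that stand beside every mural result below.

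Arterial cells held the highest levels of most members. Compared with capillary cells of the same libraries, 7 of the 9 were higher in arterial cells and none was lower, where 20.5% of all 9850 genes tested were higher and 17.3% lower. Levels are CPM, counts of the cells summed by class and library and scaled to a common total, and calls are edgeR quasi-likelihood tests with library as a term, at a Benjamini-Hochberg adjusted p below 0.05. Irf7 in arterial cells stood at 249.9, 158 and 139.7 CPM in the 12-month libraries and at 222, 109, 125 and 123 CPM in the 3-month ones. In capillary cells it stood at 169.5, 86.8 and 63.5 CPM, and at 122, 60.6, 67.7 and 77.9 CPM. The arterial value was the higher one in 7 of 7 libraries, although the ranges over libraries overlapped; the log2 difference was 0.86 ± 0.07 (SE; adjusted p = 3.84e-09). Ifi27l2a was higher in 7 of 7 libraries, by 1.18 ± 0.18 on the log2 scale (adjusted p = 2.69e-05), and Ifitm3 in 7 of 7, by 0.80 ± 0.10 (adjusted p = 3.24e-06). Bst2 rose by 0.63 ± 0.08 (adjusted p = 2.25e-06), from 300.5 ± 93.7 to 462 ± 170 CPM (mean ± SD, n = 7).

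Smaller arterial differences were found for Ifit3, 0.49 ± 0.09 (adjusted p = 0.000199; higher in 6 of 7 libraries), Isg15, 0.32 ± 0.10 (adjusted p = 0.0157; higher in 5 of 7), and Ly6e, 0.24 ± 0.07 (adjusted p = 0.0133; higher in 7 of 7). The Isg15 and Ly6e calls were lost without 3-month replicate 3 or without 3-month replicate 4, with adjusted p up to 0.0716 and 0.0608. Ifit1, at 150.6 ± 37.6 CPM in arterial and 143 ± 26.6 CPM in capillary cells, and Irgm1, at 71.1 ± 7.74 and 77.6 ± 14.6 CPM, did not pass the test.

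Venous cells split the members. Ifitm3 and Ifi27l2a were higher than in capillary cells, Ly6e slightly so, and Isg15, Irf7 and Ifit1 were lower: 3 members higher and 3 lower of 9, against 20.5% higher and 21.1% lower of 11095 genes tested. Ifitm3 in venous cells stood at 3620, 3317 and 2142 CPM in the 12-month and 4690, 1788, 2859 and 2724 CPM in the 3-month libraries. In capillary cells it stood at 2404, 1806 and 1220 CPM, and at 2052, 987, 1404 and 1191 CPM. Venous cells had the higher value in 7 of 7 libraries, with a log2 difference of 0.98 ± 0.07 (adjusted p = 1.5e-09), and the ranges over libraries overlapped because libraries differed in both classes. Ifi27l2a differed by 1.11 ± 0.12 (adjusted p = 2.82e-07), also higher in 7 of 7.

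Irf7 was lower in venous than in capillary cells in 7 of 7 libraries, at 118.9, 83.2 and 25.8 CPM and at 77.5, 32.4, 43.7 and 39.8 CPM in the venous sums; the log2 difference was -0.63 ± 0.10 (adjusted p = 4.31e-05). This transcription factor therefore had its highest endothelial level in arterial cells, and its lowest in venous cells, in every library. Isg15 was lower in venous cells in 6 of 7 libraries, by -0.44 ± 0.11 (adjusted p = 0.00248). Ifit1 was lower by -0.20 ± 0.08 (adjusted p = 0.0481), a call lost without any of 5 single libraries (adjusted p up to 0.155). Ly6e was higher by 0.17 ± 0.05 (adjusted p = 0.0174), a call lost without 3-month replicate 2 or 3-month replicate 3 (adjusted p up to 0.0573). Bst2, Irgm1 and Ifit3 did not pass, with log2 differences from -0.12 to 0.01.

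**Figure D1:**
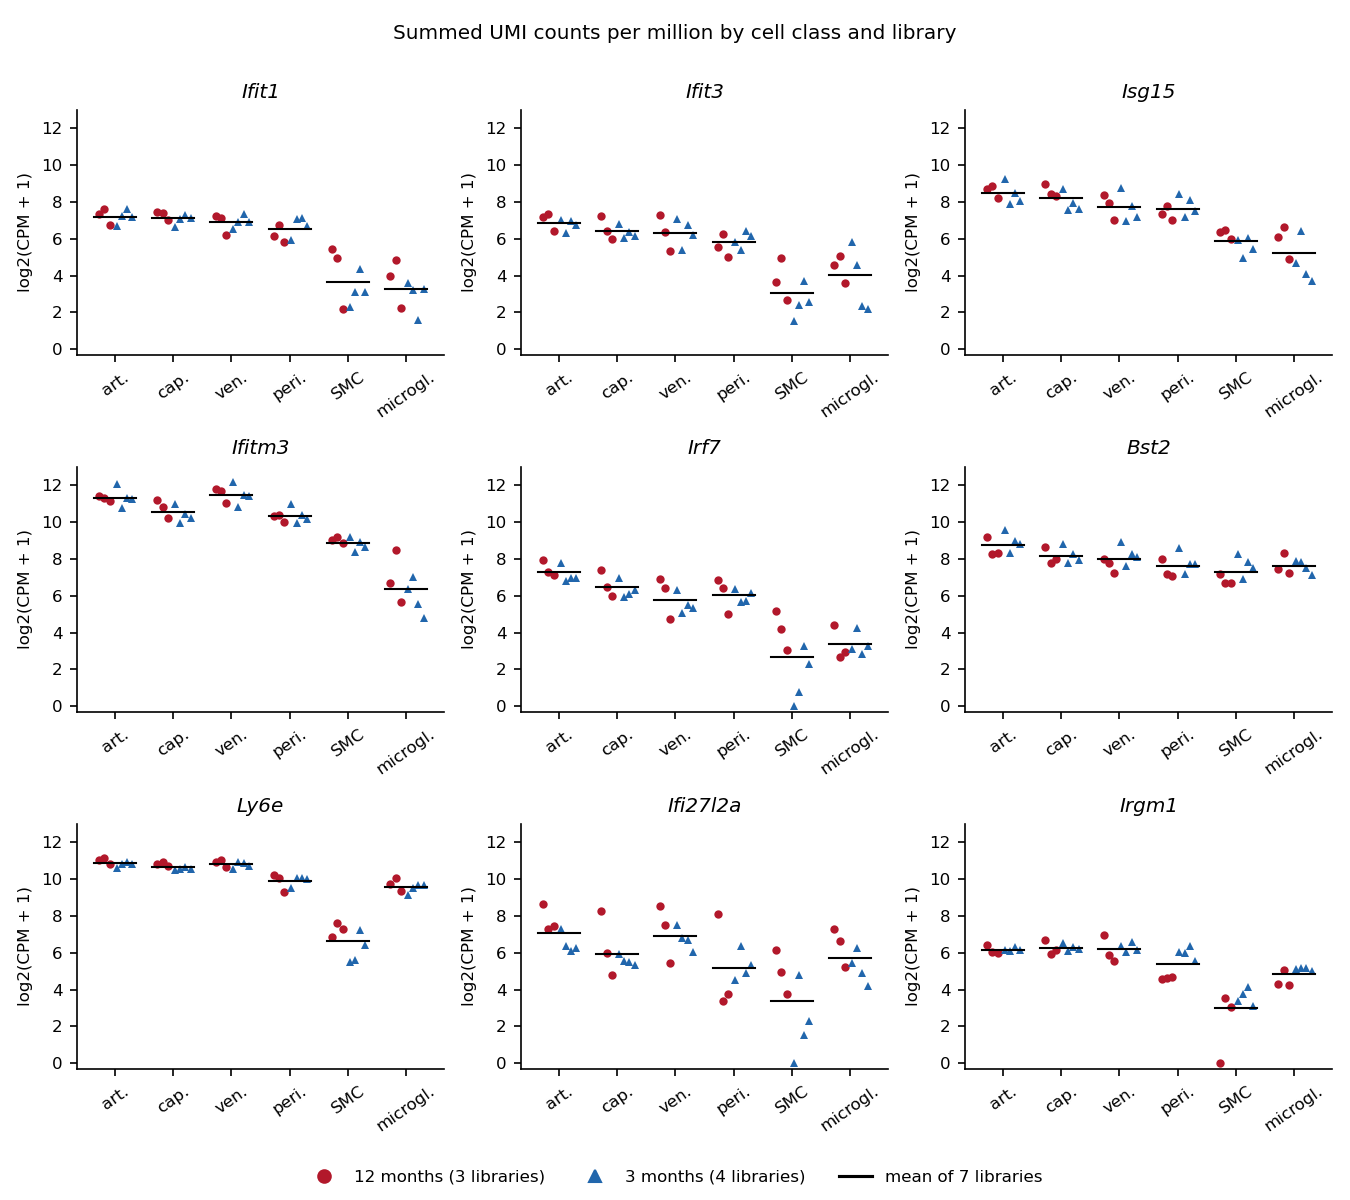
Each panel plots log2(CPM + 1) of 1 gene in the summed cells of each class, with 1 point a library (circles 12 months, triangles 3 months) and a bar for the mean of 7. Most members sat higher in the 3 endothelial classes than in smooth muscle and microglia, while Bst2 sat between 101 and 769 CPM in all 6 classes.

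Smooth muscle cells, the contractile cells of arterioles and arteries, held the members at low levels. All 9 were lower than in capillary cells, against 35% of 10011 genes tested lower and 30% higher. Ly6e stood at 115, 197 and 157 CPM in the 12-month and 43.9, 47.1, 149.6 and 85.8 CPM in the 3-month libraries, in no library near its capillary range of 1462 to 1924 CPM. Its log2 difference was -3.79 ± 0.18 (adjusted p = 1.46e-13). Relative to capillary cells, Ly6e was at a median of 6.32% and Ifit1 at 5.79%, close to the endothelial markers at 5.36%. Bst2 was at 53.6%, Ifitm3 at 33.0% and Isg15 at 20.0% (medians of 7 libraries), and each of these exceeded the endothelial markers' share in 7 of 7 libraries. The log2 differences were -0.64 ± 0.13 for Bst2 (adjusted p = 0.000248), -1.48 ± 0.11 for Ifitm3 (adjusted p = 9.85e-11) and -2.13 ± 0.11 for Isg15 (adjusted p = 7.7e-13). The other 5 members lay between -3.20 and -1.65.

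Pericytes, the mural cells on capillaries, sat between the endothelial cells and smooth muscle for most members. Against capillary cells 6 of 9 members were lower and none was higher (13.8% of 9399 genes tested were lower and 13.8% higher), and against smooth muscle 8 of 9 were higher (25.7% of 7543 genes tested were higher and 24.6% lower). These sums held endothelial markers at a median of 60.9% of the capillary level. In the same measure Ly6e was at 65.4%, Ifit1 at 63.9%, Irgm1 at 62.4% and Ifitm3 at 95.8%. Of the 792 pericytes, those in which endothelial markers made up under 0.5% of UMIs, 12 to 195 a library, gave other values. Ly6e was at 125 ± 196 CPM (SD, n = 7) in those cells and at 1176 ± 185 CPM in the other pericytes, lower in 7 of 7 libraries. Isg15 was at 51.0 ± 34.0 against 241 ± 83.1 CPM, Irf7 at 10.8 ± 14.6 against 82.4 ± 37.8 CPM and Irgm1 at 3.49 ± 4.38 against 55.7 ± 25.4 CPM, each lower in 7 of 7. The values in the cells with little endothelial RNA rest on few counts, 0 to 2 UMIs a library for Irgm1 and 0 to 6 for Irf7. For Ly6e, 12-month replicate 1 gave 552 CPM there from 6 UMIs in 12 cells. Ifitm3 was at 1022 ± 289 against 1372 ± 360 CPM, lower in 6 of 7.

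With those cells alone, a comparison added after the values were seen, Ifitm3 was still higher in pericytes than in smooth muscle, by 0.76 on the log2 scale (adjusted p = 9.79e-09), beside 1.17 ± 0.10 over all pericytes (adjusted p = 6.3e-10). Ly6e turned from 2.90 ± 0.20 (adjusted p = 3.57e-11) to -1.26 (adjusted p = 1.21e-06). Isg15 turned from 1.56 ± 0.15 (adjusted p = 1.11e-08) to -0.43 (adjusted p = 0.237). Bst2, at 0.00 ± 0.11 over all pericytes (adjusted p = 0.981), was at -1.51 (adjusted p = 3.87e-08). These 4 were the members with enough counts for that test. Against capillary cells the fitted log2 differences of all 9 members were negative in the pericytes with little endothelial RNA, from -0.73 for Ifitm3 (adjusted p = 4.03e-08) to -4.82 for Ly6e (adjusted p = 6.15e-144). Ifi27l2a, fitted at -2.90, had a mean of 109 ± 277 CPM in these cells and 49.5 ± 42.9 CPM in the other pericytes. It was lower in 6 of 7 libraries, while 12-month replicate 1 gave 736 CPM from 8 UMIs. Such cells numbered 12 in that library and 15 in 3-month replicate 1, under the minimum of 20 for a sum. The call for Ifi27l2a over all pericytes against smooth muscle, 1.10 ± 0.41 (adjusted p = 0.0309), was lost without any of 5 single libraries (adjusted p up to 0.13), and that for Irf7 against capillary cells, -0.37 ± 0.12 (adjusted p = 0.0225), without 12-month replicate 3 (adjusted p = 0.0985).

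Microglia, the resident macrophages of brain, had 8 of 9 members lower than capillary cells, against 37.7% of 10416 genes tested lower and 32.4% higher. Ifitm3 stood at 102, 355 and 49.1 CPM in the 12-month and 80.8, 129, 46.5 and 26.2 CPM in the 3-month libraries, against 987 to 2404 CPM in capillary cells, with no overlap. Its log2 difference was -4.11 ± 0.30 (adjusted p = 1.42e-09), and that of Ifit1 was -4.01 ± 0.22 (adjusted p = 2.98e-11). Ifitm3 was at a median of 4.03% of the capillary level and the endothelial markers at 2.06%. Ly6e, at 784 ± 154 CPM, was at 48.7% of capillary (log2 difference -1.05 ± 0.10; adjusted p = 9.46e-08), and Irgm1 at 42.8% (-1.50 ± 0.16; adjusted p = 3.2e-07). Bst2 was lower by -0.55 ± 0.16 (adjusted p = 0.0062), lower in 5 of 7 libraries, and the call was lost with doublets kept (adjusted p = 0.0981). Ifi27l2a did not differ past the test (-0.13 ± 0.21; adjusted p = 0.591), with 17.5 to 158.5 CPM in microglia and 26.2 to 306 CPM in capillary cells.

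**Figure D2:**
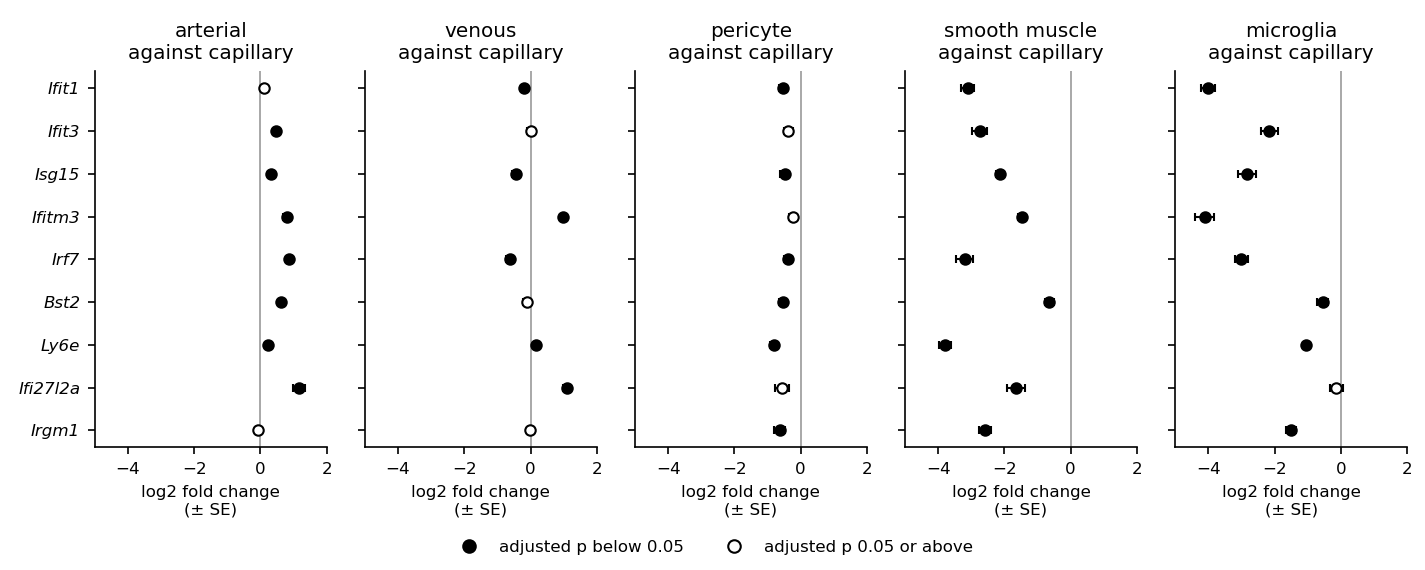
Log2 fold change of each gene in 5 classes against capillary cells, with its standard error, over 7 libraries a class; filled points passed an adjusted p of 0.05 (edgeR). The spread was widest in microglia, from -4.11 for Ifitm3 to -0.13 for Ifi27l2a, and 7 of 9 filled points lay right of 0 in arterial cells.

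Whether a level is shared by most cells or comes from a few was read from single cells, each thinned to 1000 UMIs so that depths match; shallower cells were left out, 962 of 1761 capillary cells in 12-month replicate 1. In capillary cells Ly6e had a UMI in 74.1 to 83.0% of cells (80.7 to 97.7% before thinning), in each library about as often. Ifitm3 was found in 51.2 to 86.6% of capillary cells. Isg15 was found in 14.4 to 33.8%, Bst2 in 17.9 to 32.4%, Ifit1 in 8.65 to 15.9%, Irf7 in 5.13 to 15.0%, Irgm1 in 5.77 to 9.39% and Ifit3 in 4.88 to 11.8%. Ifi27l2a was found in 2.13 to 4.74% in 6 libraries and in 20.0% in 12-month replicate 1. The share follows a gene's level, so it does not by itself tell an even from an uneven distribution. In smooth muscle, a class that held few of these transcripts, Ly6e had a UMI in 1.42 to 11.7% of thinned cells and Ifit1 in 0 to 2.01%.

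The Fano factor, the variance of counts over cells divided by their mean, is near 1 when cells differ by counting alone. In capillary cells its median over libraries was 1.63 for Ifitm3, 1.5 for Ifi27l2a, 1.48 for Isg15, 1.32 for Ifit1 and Ifit3, 1.2 for Ly6e, 1.19 for Bst2, 1.14 for Irf7 and 1.07 for Irgm1, beside 1.03 over all genes with a thinned mean of at least 0.05. Ifit3 and Irgm1 were found in similar shares of cells, yet the top 1% of capillary cells held a median of 26.4% of Ifit3 counts and 21.2% of Irgm1 counts. For Ly6e the top 1% held 3.71 to 4.33%, the narrowest range of the 9. For Ifi27l2a they held 17.0% in 12-month replicate 1, where the gene was high, and up to 60.6% elsewhere. This share also follows a gene's level, since the top 1% must hold a large part where few cells have a UMI. It does not by itself tell an even from an uneven distribution. Ifi27l2a also fell below the mean of 0.05 in 12-month replicate 3, at 0.0342 in cells with Isg15 and 0.0219 in cells without.

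Responding cells were defined without the members, as cells with a UMI of at least 4 of 17 other interferon-stimulated genes, among them Rsad2, Ifit2, Usp18, Oasl2 and Cmpk2, after thinning. They made up 1456 of 27820 endothelial cells, or 5.23%. This is a range and not a cell type: 2518 endothelial cells had exactly 3 of the genes and 938 had exactly 4, and numbers fell from there to 3 cells with 10 and 3 with 11. The endothelial share moved with cut and depth. Its means at 12 and 3 months were 16.3 and 13.9% for at least 3 genes and 0.979 and 0.565% for at least 6. After thinning to 2000 UMIs they were 24.3 and 19.6%. How many cells reach 4 genes by counting alone, from a level shared by all, was not tested. A share also rises with a class's general level of the 17 genes, so it does not by itself show responding cells. Under the definition used here the share was 3.45 to 11.2% in arterial (median 7.69%) and 3.69 to 8.39% in capillary cells (median 4.77%). In venous cells it was 0.282 to 9.20% (median 3.02%). The arterial share was above the capillary share in 6 of 7 libraries, and the venous share below it in 6 of 7; these shares were not tested. Pericytes gave 9 of 729 cells, microglia 13 of 2149 and smooth muscle 1 of 1195. In smooth muscle 6 libraries had none, which allows a share of up to 1.71 to 3.13%.

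The members divided by how far they rose in responding endothelial cells. Ifit3 rose most: in the 7 libraries its level in responding cells was 3.06 to 5.61 times that in the other endothelial cells (median 3.86), at 312 ± 81.8 against 77.3 ± 24.0 CPM. The median ratio was 2.92 for Ifit1, 2.51 for Isg15, 2.25 for Irf7, 1.84 for Irgm1, 1.63 for Ifi27l2a and 1.53 for Bst2. Ifitm3 was at 1.26 (0.968 to 1.49) and Ly6e at 1.18 (1.14 to 1.24). Responding cells held a median of 20.4% of Ifit3 counts, 14.5% of Ifit1, 13.6% of Isg15 and 6.14% of Ly6e counts, the last close to the 5.26% of cells that they were. The ratios of Ifi27l2a and Ifitm3 were below 1 in 3-month replicate 1, at 0.870 and 0.968. The ratios carry no test, since the cells were chosen by genes of the same kind. Median UMIs before thinning were 1447.5 in responding and 1463 in other cells of 12-month replicate 1, and 5812 against 5352.5 in 3-month replicate 2.

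**Figure D3:**
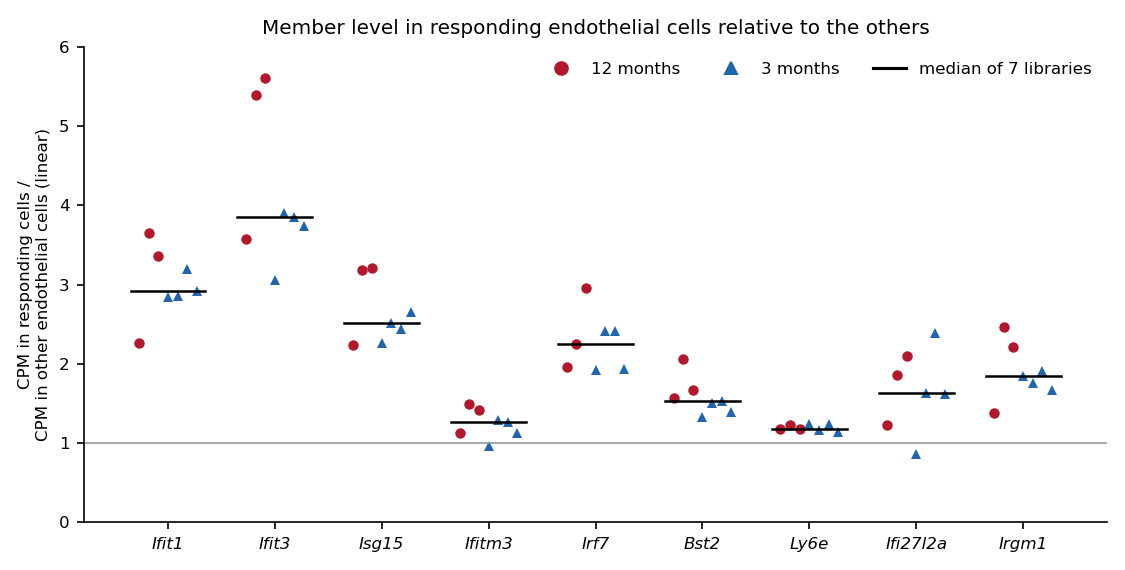
Ratio of each gene's CPM in responding endothelial cells to that in the other endothelial cells, 1 point a library, with bars for medians; the line at 1 marks equal levels. Ifit3 reached medians of 3.86 and Ly6e of 1.18, with the 7 Ly6e points between 1.14 and 1.24.

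With the cut used here, most of each member's endothelial counts lay outside the responding cells, which held at most 29.2% in a library (Ifit3). That share depends on cut and depth. After thinning to 2000 UMIs, responding cells made up 24.3 and 19.6% of endothelial cells at 12 and 3 months. The 2421 endothelial cells below 1000 UMIs were not scored. Leaving the responding cells out of the sums kept 43 of the 44 member calls between classes. The one lost was Ifit1 in venous cells (log2 difference -0.14, adjusted p = 0.214). As they were 5.23% of scored endothelial cells, leaving them out could change the calls little. Strongly responding single cells were rare. Summing Ifit1, Ifit3 and Isg15 per thinned cell, 13140 of 19025 capillary cells had no UMI, 192 had 5 or more and 11 had 10 or more, with a maximum of 14. Counts of 10 or more were met in 1 of 1735 arterial cells, in 0 of 1959 venous cells, 0 of 716 pericytes (12-month replicate 1 left out) and 0 of 1195 smooth muscle cells, and in 1 of 2149 microglia. That microglial cell belonged to 3-month replicate 1, reached 12, and held 57.1% of the 3 genes' counts among that library's thinned microglia. The 11 capillary cells came from 5 libraries, 5 of them in 12-month replicate 3 and 3 in 12-month replicate 2. No separate group of high cells stood out: sums of 8, 9 and 10 were met in 8, 5 and 9 capillary cells, and 2 cells lay above.

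**Figure D4:**
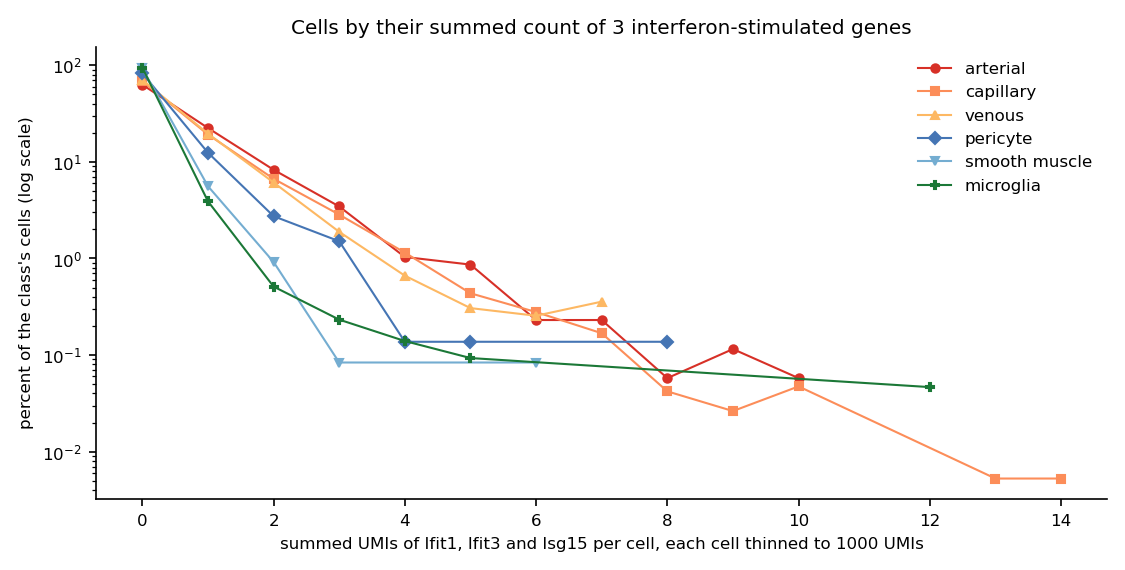
Percent of cells (log scale) against the summed UMIs of Ifit1, Ifit3 and Isg15 per cell after thinning, pooled over libraries, by class; lines join the sums at which a class had cells. Cells with 5 or more made up 1.01% of capillary and 1.56% of arterial cells, and 0.0837% of smooth muscle cells.

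The 3 strongest responders were found together in single capillary cells. Ifit3 had a UMI in 16.3% of cells with an Ifit1 UMI and in 4.77% of cells without (medians of 7 libraries), and its mean UMI count was 1.91 to 5.57 times as high in the former within a library. Isg15 had one in 39.1% of cells with Ifit1 and in 19.2% without. Ly6e differed less, found in 82.2% of cells with Isg15 and in 75.2% of cells without. These are descriptions of cells of the same libraries and carry no test.

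Libraries differed in several members at once. In capillary cells Isg15 stood at 503, 343 and 315 CPM in the 12-month and 418, 189.7, 246 and 198 CPM in the 3-month libraries. Irf7, Ifit3, Ifitm3, Bst2 and Irgm1 likewise had 12-month replicate 1 and 3-month replicate 1 as their 2 highest capillary values. Over the 27 pairs of a member and an endothelial class, these 2 libraries were the top 2 in 13, and 12-month replicate 1 was the highest in 14. Ly6e and Ifit1 did not follow: in 3-month replicate 1 they had their lowest capillary values, 1462 and 98.4 CPM. The same 2 libraries had ribosomal protein genes at 10.8% of capillary UMIs, against 7.46 to 9.86% in the others, and 12-month replicate 1 had the fewest UMIs, a median of 955 a capillary cell against 1540 to 4771. The part of either measure in the levels was not tested.

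Ifi27l2a stood apart in 12-month replicate 1. It reached 306 CPM in capillary cells there, from 652 UMIs, against 26.2 to 62.4 CPM in the other 6 libraries. That library was the highest in each of the 6 classes, at 401 CPM in arterial, 373 in venous, 277 in pericyte, 69.05 in smooth muscle and 158.5 in microglial cells. The pericyte value came from 25 cells.

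**Figure D5:**
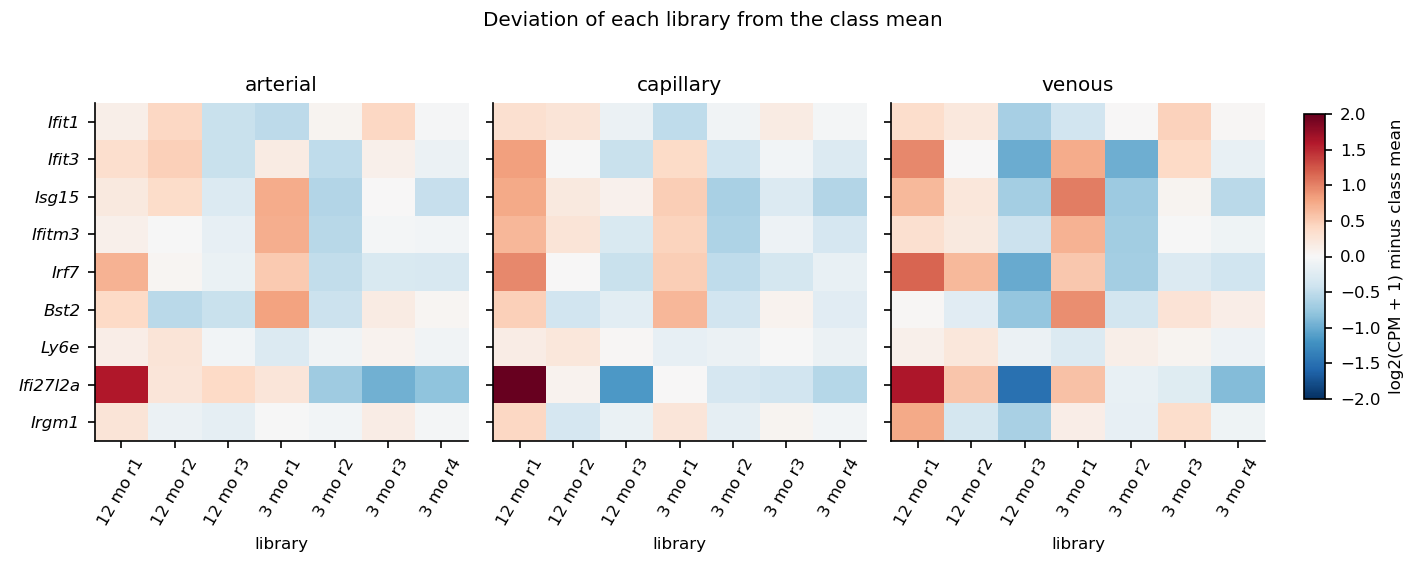
Difference of each library from its class mean in log2(CPM + 1), for 9 genes, 7 libraries and 3 endothelial classes. The Ly6e row is pale throughout, while Ifi27l2a in 12-month replicate 1, at 401, 306 and 373 CPM, is dark red in each class.

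Age was compared in each class with all libraries. Of 51 tests of members over 6 classes, 1 passed at an adjusted p below 0.05 and 13 had an unadjusted p below 0.05. In capillary cells none of 9 passed, where 3.92% of 12051 genes did; 2 had an unadjusted p below 0.05. None passed in arterial cells (0.149% of 9409 genes), venous cells (2.51% of 10445), smooth muscle (0.152% of 8572) or microglia (1.77% of 6994) either. At an unadjusted p below 0.05 there were 1 of 9 in arterial, 0 of 9 in venous, 6 of 8 in smooth muscle and 2 of 7 in microglial cells. The percentages of all genes given here are at an adjusted p below 0.05. They are no yardstick for the unadjusted counts. DESeq2 called 1 member by age in any class, Ifi27l2a in arterial cells, whose log2 difference was 1.36 with edgeR (adjusted p = 0.245) and which also passed there without 3-month replicate 1 (adjusted p = 0.00899). Single left-out libraries also brought calls in smooth muscle and microglia. In smooth muscle Ifi27l2a passed without 3-month replicate 2 (3.72; adjusted p = 0.0122) and Ly6e without 3-month replicate 3 (1.41; adjusted p = 0.0485). In microglia Isg15 passed without 3-month replicate 2 (1.70; adjusted p = 0.0394), and Ifi27l2a without that library (1.75; adjusted p = 0.0394) or without 12-month replicate 3 (1.77; adjusted p = 0.00828). With no filter on low counts Ifi27l2a passed in capillary, arterial, venous, smooth muscle and microglial cells, Bst2 and Ly6e in smooth muscle and Ifitm3 in microglia. Isg15 in capillary cells was at 387 ± 101 CPM (n = 3) at 12 months and 263 ± 106 CPM (n = 4) at 3 months, a log2 difference of 0.65 ± 0.26 (adjusted p = 0.226, edgeR). Without 3-month replicate 1 it passed, with a difference of 0.94 (adjusted p = 0.0163). Ifi27l2a in capillary cells differed by 1.48 ± 0.57 (adjusted p = 0.2), by 0.03 without 12-month replicate 1 and by 2.02 without 12-month replicate 3, where it passed (adjusted p = 0.0231). In the capillary sums Ly6e was the one member whose 12-month values, 1823, 1924 and 1662 CPM, all lay above its 3-month values, 1462, 1519, 1631 and 1521 CPM. The log2 difference was 0.32 ± 0.16 (adjusted p = 0.33). The ages overlapped for 8 of 9 members in capillary cells and in pericytes, and for all 9 in each other class. How many of all genes separate by age in this way was not counted.

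The one call was Irgm1 in pericytes, where 1.44% of 8008 genes passed. It stood at 23.1, 24.0 and 24.8 CPM at 12 months and at 64.6, 61.5, 81.5 and 45.8 CPM at 3 months. These values did not overlap, and how many of all genes separate in this way was not counted. The log2 difference of 12 against 3 months was -1.34 ± 0.33 (adjusted p = 0.036, edgeR). The 12-month values rest on 1, 18 and 16 UMIs, and the pericyte sums held endothelial markers at 55.1, 60.9 and 36.4% of capillary at 12 months and 57.4, 75.9, 68.5 and 63.8% at 3 months. The part of endothelial RNA in this difference was not tested. The age difference of Irgm1 in pericytes also differed from that in capillary cells, by -1.19 ± 0.33 (interaction, adjusted p = 0.0473; 1.43% of 10745 genes). The first call was lost without any of 4 single libraries, 12-month replicates 2 and 3 and 3-month replicates 2 and 3 (adjusted p up to 0.482), with doublets kept (adjusted p = 0.117), in cells of at least 1000 genes (adjusted p = 0.274) and at clustering resolution 1.0, where the difference was -0.53 (adjusted p = 0.768). DESeq2 gave no adjusted p for it. The interaction was lost without 12-month replicate 2 or 3 or without 3-month replicate 1, 2 or 3 (adjusted p up to 0.229). Of the 45 tests of members by this interaction, 11 had an unadjusted p below 0.05, a count with no share of all genes beside it. No other member had an age difference that differed from the capillary one by this test, in arterial (0.53% of genes called), venous (1.87%), smooth muscle (2.2%) or microglial cells (5.89%).

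The share of responding endothelial cells was 9.54, 5.12 and 3.78% in the 12-month libraries and 4.45, 5.33, 5.93 and 5.26% in the 3-month ones. The 12-month libraries held both the highest and the lowest share. The means were 6.15 ± 3.02% (n = 3) and 5.24 ± 0.607% (n = 4), a difference of 0.908 percentage points (two-sided exact permutation test over 35 splits, p = 0.8; the smallest p possible is 0.0286). Without 12-month replicate 1 the difference was -0.790.

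The rest of the interferon pathway was counted in the same fits. Of the 2 type I receptor chains, Ifnar1 was lower than in capillary cells, at 274 ± 44.0 CPM there, in all 5 other classes, down to 31 ± 7.74 CPM in smooth muscle (log2 difference -2.97 ± 0.12; adjusted p = 5.14e-15). In microglia the type II receptor chains Ifngr1 (3.23 ± 0.11; adjusted p = 5.72e-14) and Ifngr2 (2.87 ± 0.09; adjusted p = 5.72e-14) were higher. None of 11 listed interferon genes had enough counts to be tested in any class.

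Among other interferon regulatory factors, Irf8, a myeloid factor, was at 594 ± 52.3 CPM in microglia and 1.83 ± 1.82 in capillary cells, and Irf5 at 173 ± 33.0 against 11.7 ± 2.14 CPM. The sensors also divided by class: Tlr7, at 98.8 ± 17.8 against 0.309 ± 0.375 CPM, and Tmem173, the gene of STING, were higher in microglia, and Ifih1, a cytosolic RNA sensor, was lower there (-1.58 ± 0.12; adjusted p = 3.61e-09).

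A list of 40 other type I interferon-stimulated genes, 38 of them counted, was compared in the same fits. In arterial cells 17 of 33 tested were higher and 3 lower (median log2 difference 0.28, against 0.00 over all genes). Phf11d rose by 2.13 ± 0.09 (adjusted p = 5.42e-13), while Slfn5 was lower by -0.68 ± 0.08 (adjusted p = 6.06e-07). In venous cells 8 of 34 were higher and 14 lower (median -0.12, against -0.01); the antiviral enzyme gene Rsad2 was lower by -1.32 ± 0.10 (adjusted p = 1.07e-09). In smooth muscle 1 of 31 was higher and 29 were lower (median -2.49, against -0.07), and in microglia 5 of 34 were higher and 25 lower (median -1.44, against -0.07). In pericytes, 1 of 31 was higher and 24 were lower (median -0.60, against 0.00). The shares of all genes called higher and lower in each class, given above with the members, are the yardstick for these counts. In venous cells the part of the list that was higher was close to that of all genes, and the part that was lower was above it.

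The GTPases related to Irgm1 were higher in arterial cells in 8 of 12 tested, where 20.5% of all genes were, for example Ifi47 (0.82 ± 0.07; adjusted p = 1.5e-08), although Irgm1 itself did not pass there. All 11 tested were lower in smooth muscle and all 11 in microglia, where 35% and 37.7% of all genes were lower, with Gbp4 at 93.0 ± 22.6 CPM in capillary and 2.54 ± 2.10 CPM in microglial cells. Of the Ifitm relatives, Ifitm2 was higher in venous cells (0.78 ± 0.06; adjusted p = 5.46e-09), as Ifitm3 was, and lower in microglia (-4.66 ± 0.21; adjusted p = 2.86e-12). In arterial cells 2 of 2 Ifitm relatives tested were also higher than in capillary cells, with a median log2 difference of 1.08. Ifitm1 was high in pericytes, at 370 ± 145 CPM against 6.01 ± 6.85 CPM in capillary cells, and in venous cells, at 136 ± 94.7 CPM. Type II-induced genes were higher in venous cells in 9 of 12 tested, where 20.5% of all genes were (DESeq2 called 8), led by the chemokine Cxcl10 (2.59 ± 0.10; adjusted p = 9.18e-14). They were also higher in arterial cells, in 6 of 8 tested with 0 lower, again beside 20.5% of all genes. The median log2 difference was 0.48 in venous and 0.47 in arterial cells.

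Among negative regulators Socs3, which curbs JAK-STAT signalling, was higher at 12 than at 3 months, at 150 ± 37.5 against 37.2 ± 6.17 CPM in capillary cells (log2 difference 2.09 ± 0.19; adjusted p = 0.000123), and also in arterial, venous and pericyte sums. Cxcl10 in microglia was at 180 ± 68.1 CPM at 12 months and 28.8 ± 40.3 CPM at 3 months (2.78 ± 0.52; adjusted p = 0.00468). Of the 35 other type I interferon-stimulated genes tested for age in capillary cells, none passed with edgeR, where 9 had an unadjusted p below 0.05, and DESeq2 called 2. Among all 12051 genes tested for age in capillary cells, 3.92% passed with edgeR. That share stands beside the edgeR counts in capillary cells here and is no yardstick for the unadjusted or DESeq2 counts. Of 3 Ifitm relatives tested there, 2 were higher at 12 months, Ifitm1 at 11.7 ± 7.53 against 1.77 ± 0.446 CPM (2.77 ± 0.45; adjusted p = 0.00485) and Ifitm10 at 10.9 ± 7.71 against 1.98 ± 0.819 CPM (2.32 ± 0.45; adjusted p = 0.014). Irf8, Tmem173 and H2-Ab1, an antigen-presentation gene, also passed in capillary cells, at 12-month means of 3.45, 6.27 and 4.68 CPM. They were 1 of 6 other interferon regulatory factors, 1 of 9 sensors and 1 of 12 type II-induced genes tested there. These genes were named after their values were seen.

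The genes most like each member were taken over the 42 sums of 6 classes and 7 libraries, by Pearson's r of log2(CPM + 1) among 6924 genes of at least 20 CPM on average. These r share libraries and the contrast of endothelial with other cells, and are given as a description. Ifit3 was most like Rtp4 (r = 0.912) and Oasl2 (0.911), both interferon-stimulated genes. Ifit1 was most like Clic5 (0.957) and Gbp3 (0.955), Isg15 like Ly6a (0.932) and Icam2 (0.927), and Irf7 like S1pr1 (0.928), of which Icam2 and S1pr1 are endothelial genes. Ly6e was most like Srgn (0.977), Ifitm3 like S100a16 (0.947) and Irgm1 like Tpd52 (0.926). The nearest genes of Bst2, Slc50a1 (0.843) and Psme2 (0.835), and of Ifi27l2a, Hsp90ab1 (0.793) and Slfn2 (0.787), were less close.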

How the data were processed

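Per the file headers and the submitters' processing notes, the authors' deposited matrices hold UMI counts per gene and cell, made with Cell Ranger 4.0.0 or 6.1.1 on mm10; Seurat is named too. From these counts, cells with at least 500 genes and at most 15% mitochondrial UMIs were kept, predicted doublets (scrublet in scanpy 1.11.5, at 0.8% per 1000 barcodes) were removed, and libraries were integrated and clustered with Seurat 5.3.0 (reciprocal PCA, resolution 0.5), keeping interferon and marker genes out of the 2000 variable genes. Clusters were named from listed markers, with score limits set after seeing the data; 5524 endothelial cells stayed unnamed and enter only counts of all endothelial cells. Names rebuilt here can differ from the study's. The 3-month files list 1 further row, yfp, with no counts. Total counts were 8706961 to 44861008 a library.

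Counts were summed per class and library (at least 20 cells, 7 libraries) and compared by the quasi-likelihood test of edgeR 4.0.16, after TMM scaling and its default filter on low counts, with p-values adjusted by Benjamini-Hochberg over all genes and library as a term between classes and age as the only term for age. The same numbers in both ages do not pair libraries. DESeq2 1.42.0, other filters, scalings, cell sets and each left-out library were tried. On simulated counts the test recovered 84.8% of 2-fold changes between venous and capillary cells (11224 genes) and 56.6% of them for age in capillary cells (12082 genes). Members and lists were chosen with earlier results of these data known, so no pattern here is independent support. All 9 members are reported; other lists are given by counts and up to 3 genes of at least 50 CPM with the largest change past the threshold, and likeness by up to 3 genes each. Floors use 3 counts. Intervals and floors cover counting error only. Protein sequences were not used here, and some genes of the pathway lists are not reported here.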

Additional observations from a re-analysis of the deposited data

Results flagged for a closer look

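In groups of 4 libraries, a library was picked out when its gap to the nearest other exceeded 0.829 of the group's range. Of 62 groups looked at, 8 had a library picked out. The rule's rate of about 1 in 20 holds for normally distributed values, not for shares and low counts that are mostly 0. A library above 0 is always picked out where all others are at 0, as for the responding share in pericytes and in microglia. Whether 8 of 62 is an excess was not tested. At 3 months, replicate 1 was high for Irf7 in arterial cells, at 222 CPM against 109 to 125 in the others, and for Ifi27l2a in arterial cells, at 157 against 67.4 to 80.4 CPM. The same library was low for Ly6e in pericytes, at 733 against 1020 to 1070 CPM. Replicate 2 was high for Ifi27l2a in smooth muscle, at 26.7 against 0 to 3.86 CPM, and for Isg15 in microglia, at 84.1 against 12.2 to 24.4 CPM. The share of responding cells was high in 1 3-month library each for pericytes, 2.41% against 0 in the others (2 of 83 cells), microglia, 0.568% against 0 (1 of 176 cells), and unnamed endothelial cells, 7.9% against 4.79 to 5.04%.

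The age difference of Irgm1 differed between pericytes and capillary cells by -1.19 ± 0.33 on the log2 scale (edgeR interaction test, adjusted p = 0.0473). The endothelial RNA in the pericyte sums was lowest in 12-month replicate 3, at 36.4% of capillary, and its part in the result was not tested.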

How the results depend on the processing

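Of 44 member calls between classes, 40 to 43 were kept when 1 library was left out, 43 by DESeq2, 43 with its size-factor method in edgeR, 42 with no filter on low counts, 43 among genes of at least 50 CPM in 3 sums, 42 with doublets kept, 42 in cells of at least 1000 genes, 40 at clustering resolution 1.0 and 43 without responding cells. With no replicate block (no library term) 30 were kept; the lost calls were Isg15, Ifi27l2a, Ly6e and Ifit3 in arterial, Isg15, Irf7, Ifi27l2a, Ly6e and Ifit1 in venous cells and Isg15, Irf7, Bst2 and Ifit1 in pericytes, and Ifi27l2a between pericytes and smooth muscle. Sums thinned to the smallest kept 11 of 28 calls and moved Bst2 in microglia to 1.01 (adjusted p = 0.552); thinning leaves few counts, and the median log2 difference of all genes tested between classes then lay between 0.15 and 1.38. Pericytes low in endothelial RNA reversed Isg15 (-0.43) and Ly6e (-1.26) against smooth muscle.

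Counts over all genes moved as follows. Called between classes in the order arterial, venous, pericyte, smooth muscle and microglia against capillary, and pericyte against smooth muscle, 3719, 4609, 2589, 6507, 7297 and 3799 genes became 404, 494, 10, 512, 487 and 59 in thinned sums. At 50 CPM the arterial, venous, smooth muscle and microglial counts became 2098, 2043, 3449 and 3978. With no replicate block (no library term) the arterial, venous and pericyte counts became 2003, 2003 and 1684; with no filter the pericyte count was 3906; low-endothelial pericytes gave 3917 and, against smooth muscle, 2279. For age, 473 capillary, 14 arterial, 262 venous, 115 pericyte, 13 smooth muscle and 124 microglial genes became 269 to 874, 9 to 63, 85 to 439, 13 to 263, 4 to 24 and 67 to 149 when 1 library was left out, and 1107, 178, 664, 221, 96 and 298 with no filter. DESeq2 gave 710 capillary, 65 arterial and 38 pericyte genes. At 50 CPM there were 59 capillary, 6 arterial, 64 venous and 3 smooth muscle genes, and in thinned sums 58 capillary, 56 venous, 0 pericyte, 0 smooth muscle and 6 microglial. Doublets kept gave 34 arterial, 42 pericyte and 8 smooth muscle genes, resolution 1.0 gave 38 arterial, cells of at least 1000 genes 27 pericyte, and low-endothelial pericytes 26. The replicate numbers do not pair libraries, as same-numbered capillary sums did not all deviate together; a replicate block gave 182 capillary, 26 arterial, 5 smooth muscle and 55 microglial genes. Interaction counts, 57 arterial, 201 venous, 154 pericyte, 236 smooth muscle and 633 microglial, ranged over 18 to 55, 76 to 242, 35 to 201, 85 to 192 and 384 to 593 without 1 library. The age difference in the responding share, 0.908 points, ranged from -0.790, without 12-month replicate 1, to 2.09. Unless stated, the cause was not tested. Low counts limit Irf7 and Ifit1 in smooth muscle and microglia.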

Other observations

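The median level of Ifi27l2a was higher in lymphocytes than in each of the 6 vessel classes, whose medians did not exceed 157 CPM. In B cells, summed in 6 libraries, it stood at 339 to 1410 CPM (median 623), and Ly6e was at a median of 1472 CPM. Ifit1 was at a median of 0 CPM in these B cells. In T and NK cells, summed in 3 libraries, Ifi27l2a stood at 332, 356 and 972 CPM. These cells lie outside the vessel classes, and the levels carry no test.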
